A study of Rattus norvegicus with 3 samples.

Results

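Synaptic vesicle fusion genes were described in rat cerebellar cortex: the synaptotagmins, synapsins, SNAPs, VAMPs, syntaxins, syntaxin-binding proteins, complexins and SV2 proteins. The choice was made with earlier results of these data known. Members were taken by name, as the probes whose accession carries a rat RefSeq symbol of one of these 8 families. This gave 59 genes of the 38973 genes and unnamed accessions on the array, and 52 of them were measured on all 3 arrays, among 23255 so measured. A gene was taken as measured when at least 1 of its probes was well above background on all 3 arrays. The choice by name also takes in Snap91, a clathrin adaptor of vesicle retrieval, and syntaxins and VAMPs that serve endosomes, the Golgi or the endoplasmic reticulum.

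Neurotransmitter is released when vesicle and plasma membrane are pulled together by a bundle of SNARE proteins: VAMP on the vesicle, and syntaxin and SNAP-25 on the plasma membrane. Syntaxin-binding proteins guide syntaxin or occupy it, complexin clamps the partly assembled bundle, and synaptotagmin triggers fusion when calcium enters. Synapsins tether the reserve vesicles and SV2 proteins are glycoproteins of the vesicle membrane. In the cerebellum this machinery serves the mossy fibre, climbing fibre and parallel fibre synapses as well as the inhibitory terminals of Purkinje cells and interneurons, where fast release relies on Syt2 beside Syt1.

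Cerebellar cortex was taken from male Wistar rats, 9 weeks old, 2 days after transient occlusion of the right middle cerebral artery (MCAO) or after sham surgery, in which the right carotid was exposed but not opened. In the MCAO group both the left cortex, contralateral to the infarct, and the right cortex, ipsilateral to it, were collected from the same rats, and in the control group the left cortex. Tissue of 4 rats was pooled for each group and its RNA hybridised to 1 array, so the pools give no spread between rats, no test could be made, and every ratio is a difference between 2 arrays. Ipsilateral and control cortex differ in side as well as in surgery. Both ratios to control use the same control array, so they are set side by side and are not independent. Each array carried 58717 spots besides its controls, and 42470 of them stood well above background on the contralateral, 43028 on the ipsilateral and 43283 on the control array. Intensities below are in arbitrary units after scaling the arrays to a common 75th percentile, and are comparable between arrays for 1 gene, not between genes. Markers of the cerebellar cortex were bright on every array: Gabra6 of granule cells had an intensity of 9016 in the contralateral, 9516 in the ipsilateral and 8125 in the control cortex, and Pcp2 of Purkinje cells one of 41587 in the contralateral, 41506 in the ipsilateral and 42652 in the control cortex.

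No measured fusion gene had a log2 ratio above 1 or below -1 in any of the 3 comparisons. In the contralateral cerebellar cortex, 0 of 52 were above 1 and 0 below -1, where 1.49% and 0.873% of all measured genes lay. In the ipsilateral cerebellar cortex it was again 0 and 0 of 52, against 3.28% and 0.83%. For contralateral over ipsilateral, 0 and 0 of 52 stood beside 0.224% and 1.62%. These background shares are small, so that a count of 0 in 52 genes is no finding about the members.

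The log2 ratios of the 52 genes lay close together around 0. In the contralateral cortex they ran from -0.54 to 0.58 with a median of 0.01, and the median of all measured genes was also 0.01. In the ipsilateral cortex they ran from -0.58 to 0.64 with a median of -0.06 beside 0.03, and for contralateral over ipsilateral from -0.58 to 0.47 with a median of 0.02 beside -0.01. The SD over the members was 0.21, 0.21 and 0.17, and over all measured genes 0.36, 0.41 and 0.30. Dim probes scattered more, and the gap in spread was smaller among bright ones: among genes with a mean log2 intensity of 8 or more, the SD of the contralateral ratio was 0.17 for 34 members and 0.21 for 11145 genes, and of the ipsilateral ratio 0.18 and 0.23. Within 0.25 of 0 lay 40 of 52 members in the contralateral and 42 of 52 in the ipsilateral cortex (76.9% and 80.8%), compared with 70.8% and 66.6% of all measured genes. Among genes with a mean log2 intensity of 8 or more it was 88.2% and 85.3% of the members and 86.2% and 84.4% of all.

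**Figure D1:**
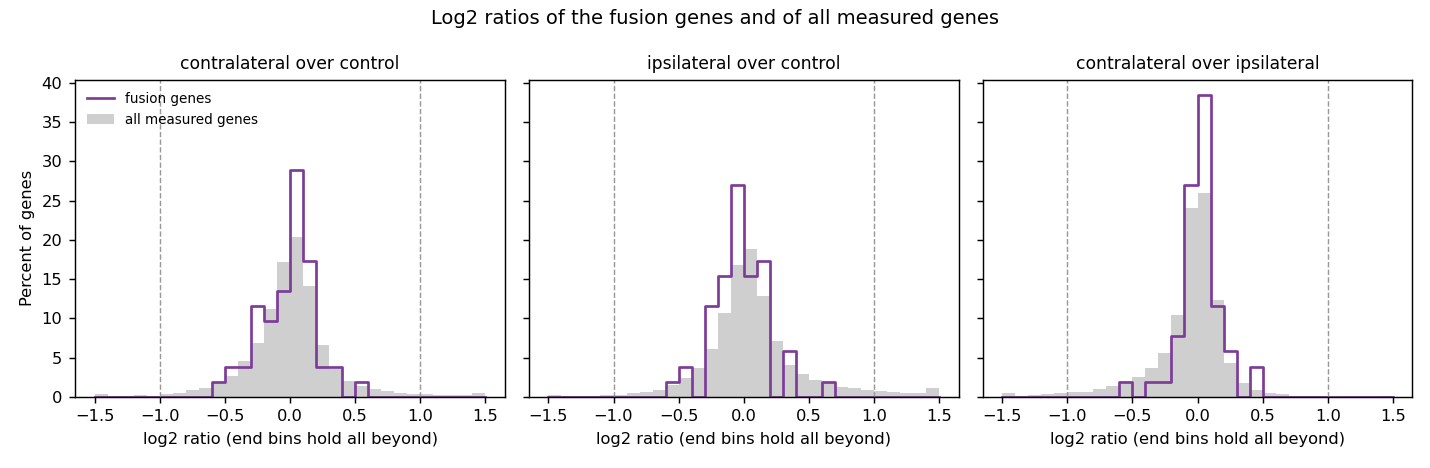
Percent of genes (vertical axis) by log2 ratio in steps of 0.1 (horizontal axis) for all 23255 measured genes (grey bars) and the 52 fusion genes (purple line), 1 panel for each comparison; dashed lines mark 1 and -1. The purple line stays between the dashed lines in each panel, with its ends at Stx1a and Syt8 in both ratios to control.

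A lower threshold of 0.5, chosen after the values were seen, was passed by few members. In the contralateral cortex Syt8 was above 0.5 and Stx1a below -0.5, 1 of 52 in each direction, where 5.55% of all measured genes were higher and 5.53% lower. The same 2 genes passed in the ipsilateral cortex, where 10.2% of all measured genes were higher and 4.61% lower. Contralateral over ipsilateral, Stx2 was below -0.5 and 0 of 52 were above 0.5, against 7.18% and 1.29% of all measured genes.

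**Figure D2:**
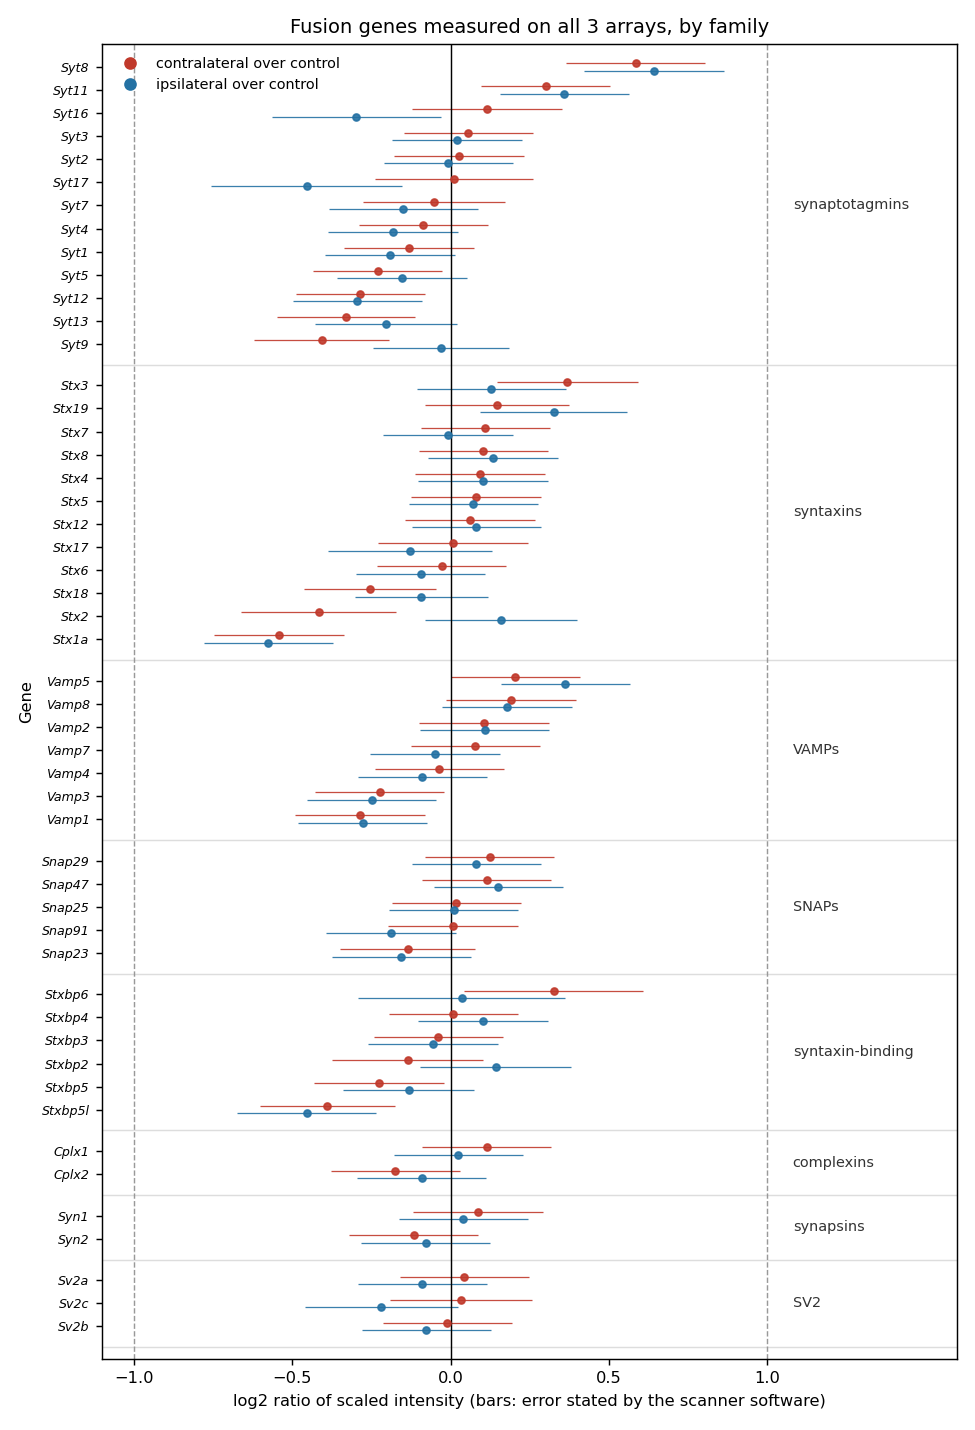
Log2 ratio of scaled intensity (horizontal axis) of 50 of the 52 measured fusion genes (vertical axis, grouped by family and ordered by the contralateral ratio), contralateral over control in red and ipsilateral over control in blue, with bars for the error that the scanner software states. Stx1a stands lowest at -0.54 and -0.58 and Syt8 highest at 0.58 and 0.64, and the dashed lines at 1 and -1 are not reached.

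Stx1a, the syntaxin of the neuronal plasma membrane that forms the release complex with Snap25 and Vamp2, was the lowest member in both ratios to control. Its intensity was 1506 in the contralateral, 1472 in the ipsilateral and 2193 in the control cortex, which gives log2 ratios of -0.54 (error stated by the scanner software 0.20) and -0.58 (0.20). Its probe was printed 10 times on each array, so the agreement between spots can be seen: the spots ran from 1425 to 1575 on the contralateral, from 1389.8 to 1536 on the ipsilateral and from 2035 to 2385 on the control array. All spots of both MCAO pools lay below all control spots, while the 2 sides overlapped, with a log2 ratio between them of 0.03. Repeated spots measure the array and not the rats. The median SD between spots of a probe was 0.05 in log2 on each array, so that a small shift can set them apart. For how many of all repeated probes the spots lay apart was not counted, so spots apart, here and below, are no finding about these genes. Of all measured genes, 4.68% had a ratio as low or lower in the contralateral and 3.47% in the ipsilateral cortex, and among the 1289 probes with 8 or more spots it was 37 and 23 probes. Across the scalings tried and the deposited values the ratio stayed below 0, between -0.69 and -0.51 in the contralateral and between -1.11 and -0.56 in the ipsilateral cortex.

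The promoters of Stx1a, of Syt8, the highest member, and of Vamp2, the vesicle SNARE that pairs with Stx1a, are shown because they belong to the 2 members at the ends of the range and to the SNARE partner of the lowest. Each is the stretch of 250 bases that ends at the gene's start, from RefSeq on the GRCr8 assembly, 5′ to 3′ on the gene's own strand: chr12:27306472-27306721 on the minus strand of Stx1a, chr1:207017352-207017601 on the plus strand of Syt8 and chr10:54292539-54292788 on the plus strand of Vamp2. Capitals mark the GC box, GGGCGG or CCGCCC on the other strand, letters to which Sp1 and its relatives are known to bind.
Stx1a: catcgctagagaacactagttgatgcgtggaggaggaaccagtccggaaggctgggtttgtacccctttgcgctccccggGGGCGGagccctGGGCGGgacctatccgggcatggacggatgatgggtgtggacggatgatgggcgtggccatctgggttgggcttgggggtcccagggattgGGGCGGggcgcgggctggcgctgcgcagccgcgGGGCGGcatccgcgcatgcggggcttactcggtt
Syt8: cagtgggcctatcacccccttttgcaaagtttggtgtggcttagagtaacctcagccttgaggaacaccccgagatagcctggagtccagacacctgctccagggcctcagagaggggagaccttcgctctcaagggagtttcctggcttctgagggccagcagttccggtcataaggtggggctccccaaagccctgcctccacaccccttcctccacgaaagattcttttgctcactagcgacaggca
Vamp2: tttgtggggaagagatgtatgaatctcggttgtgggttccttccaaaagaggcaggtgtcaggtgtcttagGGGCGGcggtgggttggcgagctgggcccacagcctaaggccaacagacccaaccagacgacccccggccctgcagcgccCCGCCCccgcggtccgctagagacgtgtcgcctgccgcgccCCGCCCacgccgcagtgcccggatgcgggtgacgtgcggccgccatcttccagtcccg
The letters occur 4 times before Stx1a, 3 times before Vamp2 and 0 times before Syt8, and G and C make up 68.4%, 68.0% and 57.6% of the 3 stretches. A link between these letters and the ratios was not tested. RefSeq promoters were found for 46 of the 59 members, with 50 starts in all since Syt16 has several. A GC box was in 26 of the 50 (52.0%), in 54.5% of the 10556 promoters of measured genes and in 30.5% of all 33469 promoters. The cAMP response element TGACGTCA, which reads the same on both strands, was in 2 of 50 (4.0%), those of Syn1 and Vamp1, against 2.79% and 1.59%. TATAAA or TTTATA was in 5 of 50, against 7.68% and 12.9%. For the GC box the members' share was thus near that of other genes measured in this tissue. A match is a run of letters only, and no factor binding was measured.

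The other plasma membrane SNAREs gave ratios nearer to 0 than Stx1a. Snap25, the neuronal partner of syntaxin, had an intensity of 22199 in the contralateral, 22075 in the ipsilateral and 21920.2 in the control cortex, with ratios of 0.02 and 0.01 and overlapping spots on all 3 arrays. Among the widely expressed relatives of Snap25, Snap29 was the highest of its family in the contralateral ratio at 1588, 1542 and 1457 (ratios 0.12 and 0.08), and Snap23 was the lowest in it at 175, 172 and 192 (ratios -0.14 and -0.16). Snap47 had ratios of 0.11 and 0.15, and Snap91, the clathrin adaptor, 0.01 and -0.19. None of these 4 was beyond its scanner error in either ratio.

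**Figure D3:**
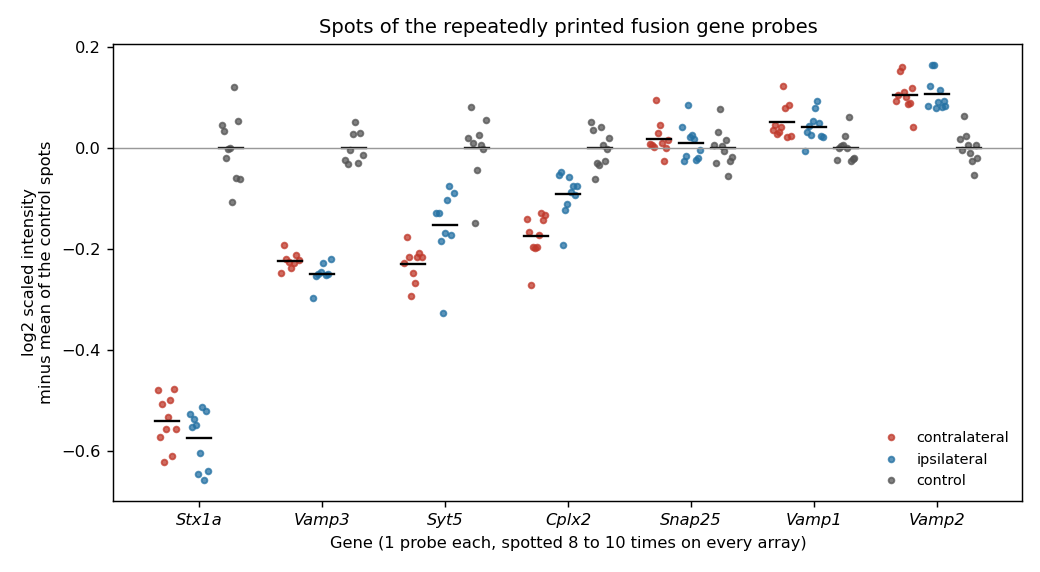
Log2 scaled intensity of each spot minus the mean of the control spots (vertical axis) for the 7 fusion gene probes printed 8 to 10 times on an array (horizontal axis), contralateral in red, ipsilateral in blue and control in grey, with black bars at the mean. Spots of Stx1a and Vamp3 from both MCAO pools lie below all their control spots, and those of Snap25 and Vamp1 overlap with the control.

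The remaining syntaxins were split by site of action. On the plasma membrane, Stx3, used at ribbon synapses and in epithelia, was the highest of the family in the contralateral cortex with 242 in the contralateral, 205 in the ipsilateral and 187 in the control cortex and ratios of 0.37 and 0.13. Its 2 probes did not agree: one gave 1119.9, 1166 and 1142 (contralateral ratio -0.03) and the other 52.2, 35.9 and 30.8 (contralateral ratio 0.76), so the gene's value rests on the second probe, which is close to background, and with the first alone the contralateral ratio is on the other side of 0. Stx2, a syntaxin of secretory cells, had 27.7 in the contralateral, 41.3 in the ipsilateral and 37.0 in the control cortex, with ratios of -0.42 and 0.16, the first of which was -0.04 with normexp. Stx4, which serves exocytosis in many cell types, had ratios of 0.09 and 0.10 over 3 probes with contralateral ratios of 0.31, 0.02 and -0.05, and Stx19 0.15 and 0.33, the latter -0.21 without scaling. The 7 syntaxins of endosomes, Golgi and endoplasmic reticulum (Stx5, Stx6, Stx7, Stx8, Stx12, Stx17 and Stx18) stayed between -0.25 and 0.11 in the contralateral and between -0.13 and 0.13 in the ipsilateral cortex, with medians of 0.06 and -0.01. The 2 probes of Stx17 gave contralateral ratios of 0.27 and -0.25. Of the 7, Stx18 was beyond its scanner error (0.21) on the contralateral side. Over all 13 measured syntaxins the median was 0.06 and 0.07.

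Of the vesicle SNAREs, Vamp2 (synaptobrevin 2), the main one of central synapses, had an intensity of 58492 in the contralateral, 58574 in the ipsilateral and 54368 in the control cortex and ratios of 0.11 and 0.11, within the scanner error of 0.20. All its ipsilateral spots lay above all its control spots, while the contralateral spots overlapped with them. The ratios were -0.05 and -0.43 without scaling, and 0.46 and 0.46 when a second probe, not well above background on any array, was averaged in. Vamp1, its close relative in fast-firing neurons, was the lowest VAMP at 2469.9, 2486 and 3013 (ratios -0.29 and -0.28), but this mean hides a disagreement between its 3 probes. The probe with 10 spots gave 29920.3, 29715 and 28875 with ratios of 0.05 and 0.04, and the single-spot probes gave 829, 871 and 1309 with -0.66 and -0.59, and 607, 593 and 724 with -0.25 and -0.29. The direction for Vamp1 therefore depends on the probe, and with the brightest probe alone it is on the other side of 0. Vamp3 (cellubrevin), a VAMP of recycling endosomes and glia, was read from 8 spots, with 4999 in the contralateral, 4909.9 in the ipsilateral and 5839 in the control cortex and ratios of -0.22 and -0.25. Its spots ran from 4916 to 5107, from 4747 to 5009.5 and from 5706 to 6053, and both MCAO pools lay below the control without overlap. Its ratios were just beyond the scanner error of 0.20, and 136 and 84 of the 1289 repeated probes had ratios as low. Vamp5 was the highest VAMP with 514, 574 and 447 and ratios of 0.20 and 0.36, the latter -0.17 without scaling. The endosomal and lysosomal Vamp4, Vamp7 and Vamp8 had ratios of -0.04 and -0.09, of 0.08 and -0.05 and of 0.19 and 0.18.

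Proteins that bind syntaxin were next. Stxbp2 and Stxbp3, which serve exocytosis outside neurons, had ratios of -0.14 and 0.14 and of -0.04 and -0.06, and the 2 probes of Stxbp2 gave ipsilateral ratios of 0.33 and -0.05. Stxbp5l (tomosyn-2), an inhibitor that occupies syntaxin and SNAP-25 in place of VAMP, was the lowest of the family at 61.6 in the contralateral, 58.9 in the ipsilateral and 80.7 in the control cortex, with ratios of -0.39 and -0.45. Both were beyond the scanner error of 0.21 and 0.22. Stxbp5 (tomosyn-1) had 164, 175 and 191 and ratios of -0.23 and -0.13. Stxbp6 (amisyn) was the highest in the contralateral ratio with 27.5, 22.5 and 21.9, a dim probe, and ratios of 0.32 and 0.04 with errors of 0.28 and 0.33. Over the 7 genes the median ratio was -0.04 and -0.06.

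The measured complexins, synapsins and SV2 proteins gave values near 0. Members of these families that were not measured are described further below. Cplx1, the complexin of fast and inhibitory neurons, had an intensity of 3905 in the contralateral, 3669 in the ipsilateral and 3609 in the control cortex (ratios 0.11 and 0.02). Cplx2 had 7853 in the contralateral, 8321 in the ipsilateral and 8867 in the control cortex (ratios -0.18 and -0.09), and its 10 spots on the contralateral array (7340.0 to 8111) lay below those on the control array (8490.3 to 9191), while the ipsilateral spots overlapped with the control. The ratio itself was within the scanner error of 0.20, and 182 of the 1289 repeated probes had one as low. Syn1 had 744, 719.8 and 700.1 (ratios 0.09 and 0.04) and Syn2 2195, 2252 and 2379 (ratios -0.12 and -0.08), though the 2 probes of Syn2 gave contralateral ratios of 0.05 and -0.29. Sv2a, the most widespread SV2 and the target of the antiepileptic levetiracetam, had 3092 in the contralateral, 2821 in the ipsilateral and 3002 in the control cortex (ratios 0.04 and -0.09). Sv2b had 1254, 1198 and 1263 (ratios -0.01 and -0.08) and Sv2c 42.7, 35.9 and 41.8 (ratios 0.03 and -0.22). All of these genes were within their scanner error in both ratios to control.

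Synaptotagmins were the largest family, with 13 of 16 genes measured, and the family with the widest range. Of the fast calcium sensors, Syt1 had an intensity of 303 in the contralateral, 289.9 in the ipsilateral and 331 in the control cortex (ratios -0.13 and -0.19) and Syt2, the sensor of fast cerebellar terminals, 695 in the contralateral, 678 in the ipsilateral and 682 in the control cortex (ratios 0.03 and -0.01). Both were within the scanner error, and the 2 probes of Syt2 gave contralateral ratios of -0.10 and 0.15. Syt9, the third sensor of this kind, was the lowest synaptotagmin in the contralateral cortex with 54.6 in the contralateral, 70.9 in the ipsilateral and 72.4 in the control cortex and ratios of -0.41 and -0.03. Its contralateral array stood apart from the other 2, beyond the scanner error of 0.21, and with normexp the contralateral ratio was -0.14. Without scaling the ratio between the 2 sides was 0.00. Among the other calcium-binding members, Syt3 had ratios of 0.06 and 0.02 and Syt7, a slow sensor of asynchronous release and facilitation, -0.05 and -0.15. Syt5 was read from 9 spots, with 947, 998 and 1110.3 and ratios of -0.23 and -0.15. Its contralateral spots (906 to 983) lay below the control spots (1001 to 1174), and 132 of the 1289 repeated probes had a contralateral ratio as low.

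Syt8, a synaptotagmin outside the neuronal calcium sensors, was the highest fusion gene in both ratios to control. Its intensity was 61.1 in the contralateral, 63.6 in the ipsilateral and 40.7 in the control cortex, and its ratios of 0.58 and 0.64 were beyond the scanner error of 0.22, but it was read from 1 spot with a low signal. Of all measured genes, 4.34% had a ratio as high or higher in the contralateral and 7.31% in the ipsilateral cortex. Over all alternatives tried the ratio stayed above 0, between 0.29 and 0.62 in the contralateral and between 0.11 and 0.66 in the ipsilateral cortex, lowest with a constant of 50 added to each intensity and without scaling, respectively. Syt11, which does not bind calcium and acts in vesicle retrieval, had 665, 693 and 539.9 and ratios of 0.30 and 0.36, beyond the scanner error of 0.20 on both sides, but without scaling the ipsilateral ratio was -0.17. Syt12 had 1158, 1149.9 and 1411 and ratios of -0.28 and -0.29, likewise beyond 0.20. Syt13 had ratios of -0.33 and -0.20. For Syt4, a synaptotagmin of dense-core vesicles, the probe with 2 spots gave ratios of 0.07 and 0.05 and the probe with 1 spot -0.25 and -0.42. Over the 13 genes the median ratio was -0.05 in the contralateral and -0.15 in the ipsilateral cortex, and 7 and 10 genes were below 0, beside 11115 and 10240 of the 23255 measured genes. Without scaling these counts were 11 and 12. With normexp, which also added an offset and used median signals, the second was 4. The number below 0 thus depends on the scaling and on the choices made together with normexp.

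The 2 sides of the MCAO group came from the same rats, and their members differed less than either side did from the control: the median size of the log2 ratio was 0.07 between sides, against 0.11 for the contralateral and 0.13 for the ipsilateral ratio to control. For all measured genes it was 0.10, 0.14 and 0.15. All 34 members with a mean log2 intensity of 8 or more lay within 0.25 of 0 for contralateral over ipsilateral, with an SD of 0.07, and 96.4% of the 11145 measured genes of that brightness did so, with an SD of 0.11. The members that differed between sides were dim. Stx2 had the lowest ratio, -0.58, and its 2 probes gave -0.72 and -0.43, both with less signal in the contralateral cortex, and without scaling the ratio was -0.19. Syt9 had -0.38, and 0.00 without scaling. Syt17 had the highest ratio, 0.47, from intensities of 31.3, 22.7 and 31.1, and Syt16 had 0.41 from 40.8, 30.7 and 37.7, both with the ipsilateral array as the low one. With normexp background correction Syt16 and Syt17 changed sign in this comparison, so no direction is given for them.

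Of the 59 members, 7 were not measured on all 3 arrays. Cplx3 and Cplx4, the complexins known from the retina, Stx11, Syt10 and Syt15 were not well above background on any array. Syn3 was well above background in the contralateral and ipsilateral cortex, with intensities of 17.2 and 21.5, and not in the control cortex, with 10.5. This makes it at least 1.64-fold higher in the contralateral and at least 2.05-fold higher in the ipsilateral cortex, where the bound sets the bright array against the higher of the dim probe's own signal and the lowest signal well above background on its array. Syt6 was well above background in the control cortex alone, with 13.8 beside 6.79 and 7.47. It was at least 1.51-fold lower in the contralateral and at least 1.11-fold lower in the ipsilateral cortex. Both probes were single spots close to the background. Names that fit the choice but had no matched probe here were Syt14, Stx16, Vamp9 and 4 pseudogenes of Stx8, Snap23 and Stxbp3.

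Other steps of the vesicle cycle were covered by 6 lists of 108 genes, of which 98 were on the array and 89 measured. The median ratio of these 89 was -0.04 in the contralateral and -0.05 in the ipsilateral cortex. Of the 89, 0 were above 1, and below -1 there were 0 and 1. Of all measured genes, 1.49% and 3.28% lay above 1 and 0.873% and 0.83% below -1. Among genes not so measured, Dnajc5g was well above background in both MCAO pools (44.4 and 44.5) but not in the control (9.51). Slc17a8 was so in the contralateral cortex alone (22.0 beside 3.45 and 3.44). Unc13b was so in the control cortex alone (10.3, 12.6 and 13.2), and Doc2a in all but the ipsilateral cortex (12.9, 9.98 and 12.7). The rest were not well above background on any array. The list of priming and active zone proteins, which dock vesicles and ready the SNAREs, had a median of -0.14 and -0.12 over 26 measured genes, beside 0.01 and 0.03 for all measured genes. In this list 20 and 18 of 26 genes lay under the median of all measured genes. Over the scalings tried and normexp the first count was 16 to 20 and the second stayed at 18.

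Unc13a (Munc13-1), which opens syntaxin so that the SNARE bundle can form, was the lowest gene of these lists. Its intensity was 59.5 in the contralateral, 52.1 in the ipsilateral and 113 in the control cortex, with ratios of -0.92 and -1.12 and scanner errors of 0.21 and 0.22, from 1 spot. With normexp its ratios were -0.50 and -0.41. Pclo (Piccolo), a scaffold of the active zone, had 228 in the contralateral, 221 in the ipsilateral and 351 in the control cortex and ratios of -0.62 and -0.67. Its 4 probes all had less signal in both MCAO pools, with contralateral ratios from -0.70 to -0.49 and ipsilateral ratios from -0.78 to -0.48. Under all scalings and background corrections tried the ratios of Unc13a and Pclo were below 0. Doc2g, a C2 domain relative of the Doc2 calcium sensors, had 33.2, 47.0 and 49.7 and ratios of -0.58 and -0.08. Cadps (CAPS-1), a priming factor, showed probes that differed: the probe with 7 spots gave ratios of -0.07 and -0.04 and the dim probe with 1 spot -0.67 and -0.77. Bsn (Bassoon), the partner of Piccolo, had 13389, 12115 and 11171 and ratios of 0.26 and 0.12. The highest gene of the list was Rab3b, a vesicle GTPase, with 636, 652 and 492 and ratios of 0.37 and 0.41, the latter -0.13 without scaling.

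**Figure D4:**
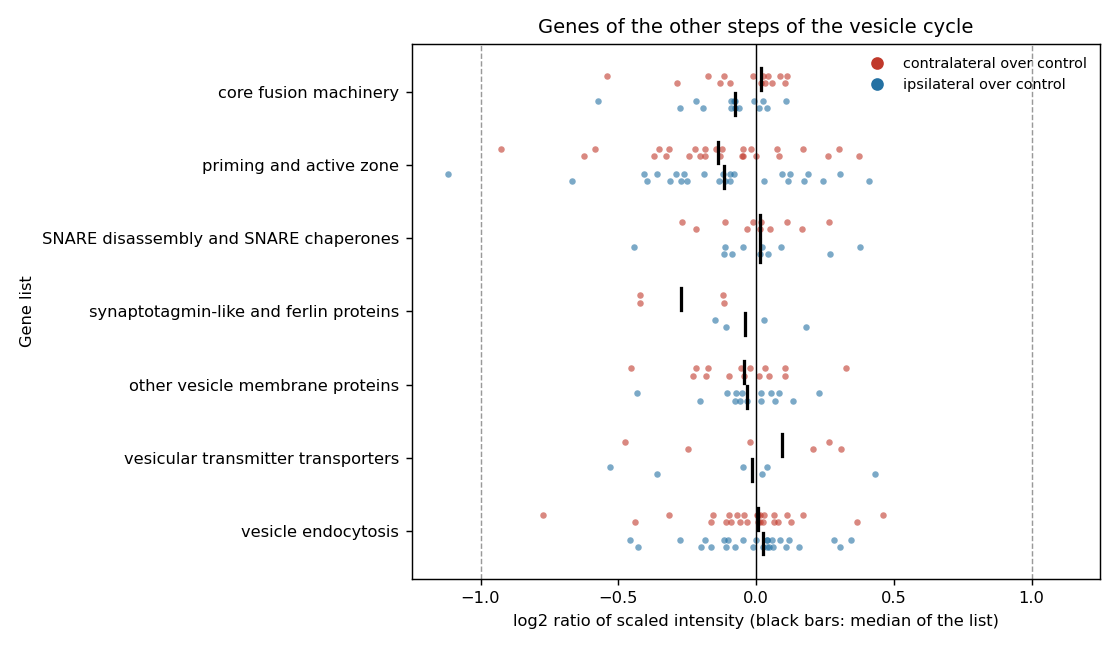
Log2 ratio of scaled intensity (horizontal axis) for the measured genes of the core fusion machinery and of 6 lists of other vesicle cycle genes (vertical axis), contralateral over control in red and ipsilateral over control in blue, with black bars at the median of each list. The lowest point of the core machinery is Stx1a, and that of the priming list is Unc13a, the single gene past a dashed line at -1.12.

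The other 5 lists had medians nearer to that of all genes, except for a list of 4. Proteins that take SNAREs apart or chaperone them had a median of 0.01 and 0.01 over 11 genes, from Napb (172, 152 and 206, ratios -0.27 and -0.44) to the chaperone Hspa8 (55620.1, 60146 and 46351, ratios 0.26 and 0.38). Vesicle endocytosis genes had a median of 0.01 and 0.02 over 27 genes. Their lowest in the contralateral cortex was Ston1 at 15.8, 32.8 and 26.9, with ratios of -0.77 and 0.28 and a ratio between sides of -1.06, and the highest was Hip1 at 1387, 1281 and 1008 (ratios 0.46 and 0.35). Other vesicle membrane proteins had a median of -0.04 and -0.03 over 15 genes and ran in the contralateral ratio from Sypl2 (53.9, 64.1 and 73.9, ratios -0.46 and -0.20) to Synpr (77.4, 72.3 and 61.7, ratios 0.33 and 0.23), while Scamp5 was the lowest in the ipsilateral ratio at -0.43. Synaptophysin (Syp), the common marker of synaptic vesicles, had 1638, 1596 and 1523 with ratios of 0.10 and 0.07. Vesicular transmitter transporters had a median of 0.09 and -0.01 over 6 genes and ran in the contralateral ratio from Slc18a3 (28.6, 38.5 and 39.8, ratios -0.47 and -0.05) to Slc18a1 (247, 203 and 199.7, ratios 0.31 and 0.02). The lowest of them in the ipsilateral ratio was Slc17a6, the glutamate transporter VGLUT2, with 599, 421 and 608 and ratios of -0.02 and -0.53. Its protein is known from climbing and mossy fibre terminals, while the arrays read RNA of the cortex and not those terminals. The highest in the ipsilateral ratio was Slc18a2 with 161, 181 and 134 and ratios of 0.26 and 0.43. Synaptotagmin-like and ferlin proteins had a median of -0.27 and -0.04 over 4 genes and ran in the contralateral ratio from Otof (264, 319 and 354, ratios -0.42 and -0.15) to Sytl1 (678, 681 and 735, ratios -0.12 and -0.11), while Dysf was the highest in the ipsilateral ratio at 0.18. Without scaling the ipsilateral ratios of Hspa8, Hip1, Ston1, Synpr and Slc18a2 were -0.16, -0.19, -0.25, -0.30 and -0.10, and with the brightest probe alone the contralateral ratio of Otof was on the other side of 0.

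Cell type markers moved between the arrays as well, and fewer cells of a type cannot be told apart from less RNA per cell in bulk tissue. Granule cell markers, 11 of 11 measured, had a summed intensity of 139941, 144956 and 164593 and median ratios of -0.10 and -0.08. Cbln1, read from the brightest probe of the list, had ratios of -0.10 and -0.08, and Grm4, the glutamate receptor of parallel fibre terminals, was the lowest of them with 21504, 23292 and 39327 and ratios of -0.87 and -0.76. The highest was Zic2 (ratios 0.45 and 0.28), and 4 of 11 were above 0 in each ratio. The summed intensities of lists, here and below, follow their brightest probes, as Grm4 here, and do not weigh the genes alike. Purkinje cell markers, 10 of 10 on the array measured, had sums of 218268, 218380.0 and 198769 and medians of 0.14 and 0.11. Markers of interneurons (10 measured) had medians of 0.07 and 0.09, of unipolar brush cells (2 measured) 0.04 and 0.10, of Bergmann glia and astrocytes (11) 0.00 and 0.03, where Gfap had -0.73 and -0.66, Aqp4 -0.55 and -0.45 and Gjb6 0.71 and 0.72, of oligodendrocytes (10) -0.13 and -0.12, and of endothelium and pericytes (11) -0.24 and -0.14. Under other settings tried the medians of Purkinje cell markers were as low as -0.02 and -0.42, and those of interneuron markers -0.09 and -0.45. The part of these markers in the results above was not tested.

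Markers of immune cells, blood, neighbouring tissues and other brain regions were read as well. Microglia and macrophage markers, 11 of 11 measured, had sums of 14396, 18349.8 and 10734, with medians of 0.18 and 0.54. They ran from Aif1 (ratios -0.29 and -0.10) to Cx3cr1 (ratios 0.78 and 1.27), and 4 of 11 in the contralateral and 2 of 11 in the ipsilateral ratio were below 0. Markers of neutrophils and platelets (4 measured) had medians of 0.15 and 0.27, and those of brainstem and cerebellar nuclei (4 measured) -0.11 and -0.27. Of these 4, Slc17a6 and Slc18a3 are the transporter genes described above. Choroid plexus markers (9 of 12 measured) had sums of 11948, 78418 and 35773 and medians of -0.60 and 0.30. Ttr, at 9909.8, 75329 and 32961, made up most of each sum. In the contralateral ratio all 9 were below 0. In the ipsilateral ratio 6 were above 0 and 3 below, the lowest being Slc4a5 at -1.20. Markers of meninges and fibroblasts (9) had medians of -0.73 and -0.27, and of blood (5 measured) -0.88 and -1.03, so that the control pool had the most signal of blood markers. Forebrain neuron markers (9 of 13 measured) had sums of 5229, 4334 and 4231 and medians of 0.02 and 0.06, yet 3 genes were above 1 in the contralateral ratio, Cck, Nrgn and Bcl11b. Cck had 960.0 in the contralateral, 99.0 in the ipsilateral and 81.6 in the control cortex and Nrgn 163 in the contralateral, 39.7 in the ipsilateral and 45.8 in the control cortex. Cck and Nrgn were high in the contralateral pool alone, while the defining marker Tbr1 was not well above background on any array. Under other settings tried the ipsilateral median was as low as 0.007 for microglia and macrophage markers and -0.23 for choroid plexus markers. Both medians of blood markers stayed below 0. The part of these shifts in the fusion gene ratios was not tested.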

How the data were processed

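The authors hybridised RNA of pooled cerebellar cortex to 1-colour Agilent arrays (Cy3, 1 per group) and deposited an intensity per spot, extracted with Agilent Feature Extraction 12.1.0.3. Background subtraction was part of that extraction, and scaling between arrays was not. The deposited value table gives each intensity times 1 factor per array (1.12, 1.45 and 1.04), and whether this is the normalization named in the methods is not given in the sources used here. The arrays shared 1 slide, so no batch could be compared.

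Log2 intensities were shifted to a common 75th percentile. Outlier spots (759, of which 3 belonged to members) were left out, and no member spot was saturated. Spots of a probe were averaged, then those probes of a gene that were well above background on all 3 arrays. Of 39957 accessions, 17622 had a symbol in the RefSeq table of GRCr8, and the 59 members had 80 probes in 146 spots. A log2 ratio above 1 counted as higher and below -1 as lower, as in the methods of the paper. The scanner error of a ratio combines the errors that the software states per spot; it covers neither rats nor hybridisations, and the number of arrays limits the precision. Python 3.11.15, pandas 2.3.3, R 4.3.3 and limma 3.58.1 were used, and the code was tested on simulated data.

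The members, the lists of vesicle cycle genes and cell type markers, and the rule for named genes were chosen with earlier results of these data known. That rule took the highest and lowest contralateral ratio of each family and list, most of the core machinery, genes beyond 1 and members with a bound; other genes were named with their values seen. The alternatives were other scalings (none, the median, 8 spike-in probes, quantiles), normexp with an offset of 50 on median signals, the deposited values, 50 added to the intensity, every dim probe kept, genes with all probes well above background, the brightest probe of a gene, and outlier spots kept.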

Additional observations from a re-analysis of the deposited data

How the results depend on the processing

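The absence of fusion genes beyond 1 held under 9 of the 11 alternatives named above, counted over all 3 comparisons. Without scaling, 1 fusion gene was below -1 in the ipsilateral cortex, Stx1a at -1.11, beside 1231 of all 23255 measured genes. Without the filter on dim probes, which adds the 7 genes near background and dim probes of other members, 1 gene was above 1 (Cplx3, 2.07) and 1 below -1 (Syt6, -1.02) in the contralateral cortex, 3 were above 1 in the ipsilateral cortex (Cplx3, Cplx4 and Syn3) and 1 between the sides (Stx11, 1.10). In each of these ratios at least 1 of the 2 signals was not well above background. Of all 38973 genes and accessions without the filter, 1833 were above 1 and 2526 below -1 in the contralateral cortex. Above 1 were 5217 in the ipsilateral cortex and 722 between the sides. The counts of members are thus no finding about them. At the threshold of 0.5, added after the data were seen, 1 member was higher and 1 lower in each ratio to control. Between the sides 1 member was lower, and the shares of all measured genes are given above.

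The median over the members followed the scaling of the whole array. Without scaling the median of all genes moved by -0.15, -0.53 and 0.38 in the 3 comparisons, and that of the fusion genes became -0.14, -0.59 and 0.40. With spike-in scaling all genes moved by -0.08, -0.25 and 0.17, and the fusion genes became -0.075, -0.31 and 0.18. With normexp the ipsilateral median was 0.067. Set against the median of all genes, the members' median stayed between -0.02 and 0.00, between -0.09 and -0.06, and between 0.02 and 0.03 over the scalings, normexp and the deposited values, but was -0.18 and 0.12 in the latter 2 comparisons without the filter. Of all genes beyond 1, the share that was higher depended on the scaling and on the filter: 63.0%, 79.8% and 12.15% here, and 40.7% and 11.1% in the ratios to control without scaling, where 186 genes were higher and 124 lower between the sides. It was 50.6%, 48.8% and 27.1% with spike-ins and 67.7%, 64.8% and 40.8% with quantile normalization, and without the filter it was 42.1% in the contralateral ratio. Of 23 members followed, 9 changed sign in the contralateral and 8 in the ipsilateral ratio without scaling, 5 and 7 with spike-in scaling, and 1 and 7 with normexp. Of all members beyond the scanner error here, 2 of 15 changed sign under some alternative in the contralateral ratio, Vamp1 and Stx3 with the brightest probe alone, to values within the error. In the ipsilateral ratio 6 of 11 did so: Vamp5, Stx19 and Syt11 without scaling, Vamp1 with the brightest probe, and Syt16 and Syt17 with normexp. Between the sides it was 6 of 7: Syt9 and Stxbp2 without scaling, Syt16, Syt17, Sv2c and Stx3 with normexp, and Stx3 also with the brightest probe. Of the vesicle cycle genes beyond the error 1 of 30, 13 of 27 and 5 of 16 changed sign in the 3 comparisons. The cause of the sign changes was not tested. How many of all measured genes lay beyond their scanner error was not counted. The numbers of members and vesicle cycle genes beyond it are therefore no finding about them. Signal over background limits Syt6, Syn3 and the other dim members.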
